A study of Mus musculus with 24 samples.

Results

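The comparison described here sets the livers of obese mice treated with an oligonucleotide against miR-132 (AM132) beside the livers of lean mice (RCD). It holds 16 of the 24 liver samples in the study, 8 in each group, chosen by the group given in the sample titles. All mice were C57Bl/6J. AM132 mice had become obese on a high fat diet over 11 weeks, then received 3.3 mg/kg of a locked nucleic acid 16-mer complementary to mature miR-132 into a vein on each of 3 days, and their livers were taken 7 days after treatment. RCD mice were age-matched, stayed on regular chow and are not described as injected, so diet and injection differ together and cannot be told apart. The other 8 samples, AM608, came from obese mice given a control 15-mer against the primate miR-608 at the same dose; their levels are given beside some results as values only. Ages in weeks, sex and whether each sample came from its own animal are not stated, so p-values reflect only the spread among these samples, which may be technical. The question addressed is which small RNAs of the treated obese liver lay at the lean level and which stayed apart from it.

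A miRNA is cut from a hairpin precursor as a duplex, of which one arm (5p or 3p) usually becomes the guide strand and pairs through its seed, the stretch near its 5′ end, with messenger RNAs; the other arm, the passenger strand, is mostly degraded. Locked nucleic acid oligonucleotides bind a mature miRNA tightly and keep it from its targets. In liver, hepatocyte miRNAs such as miR-122 and miR-192 dominate the pool. Fragments of transfer RNAs (tRFs) are cut from mature or precursor tRNAs, and those from the 3′ end carry the CCA that is added after transcription.

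The sequences that follow are those on which the results turn. Of 421 tested miRNAs, 367 had a mature sequence under their name in RefSeq (GRCm38.p6). The first set holds the target of the oligonucleotide, the relative with the same seed, and 8 miRNAs described below for a difference from lean liver or for their abundance, among them miR-24-3p, which matched. Capitals mark the seed, bases 2 to 8.
miR-132-3p: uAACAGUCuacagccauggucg
miR-212-3p: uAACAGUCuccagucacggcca
miR-149-5p: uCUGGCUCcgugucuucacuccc
miR-802-3p: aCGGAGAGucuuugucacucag
miR-205-5p: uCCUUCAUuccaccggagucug
miR-192-5p: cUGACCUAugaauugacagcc
miR-194-5p: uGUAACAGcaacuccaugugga
miR-21a-5p: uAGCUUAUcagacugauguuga
miR-411-5p: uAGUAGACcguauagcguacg
miR-24-3p: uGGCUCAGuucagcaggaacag

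The second set holds strands that were lower in AM132 than in RCD. Capitals mark the longest run of bases that each shares with miR-132-3p, as found by a search over the whole of both sequences.
let-7f-2-3p: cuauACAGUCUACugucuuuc
let-7a-1-3p: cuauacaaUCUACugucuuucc
miR-139-5p: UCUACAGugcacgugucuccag
miR-28a-5p: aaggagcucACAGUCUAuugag
miR-7a-1-3p: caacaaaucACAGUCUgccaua
miR-30e-3p: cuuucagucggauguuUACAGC
miR-455-3p: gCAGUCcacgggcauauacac

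The third set holds tRFs, whose names encode their sequences and were decoded from them. Shown are the most abundant tRF, the 5′ fragment tRF-30-PSQP4PW3FJIK, the fragment with the smallest p, and 3 fragments that lie within 1 tRNA-His gene. CCA at a 3′ end is in capitals in the last of them, the most abundant fragment of that kind.
tRF-26-86J8WPMN1EE: tcccacatggtctagcggttaggatt
tRF-30-PSQP4PW3FJIK: gcccggctagctcagtcggtagagcatggg
tRF-16-S3M830E: gtagtcgtggccgagt
tRF-30-34HWH3RXSINH: ccgtgatcgtatagtggttagtactctgcg
tRF-21-V47PU9XWE: tagtggttagtactctgcgtt
tRF-19-V47PU9J8: tagtggttagtactctgcg
tRF-18-8R6Q46D2: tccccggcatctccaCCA

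Libraries held 5926983 to 8734721 miRNA counts in AM132 and 5689143 to 8380591 in RCD, and 25849 to 80578 and 20580 to 39077 tRF counts. Levels are CPM, the usual scaled counts per library size. The library size is the sum over the tested features of a table, multiplied by a scaling factor from edgeR (TMM). Within a library, levels are in proportion to counts, but they are not plain shares of reads. A larger factor gives lower levels. For miRNAs the factors were 0.827 to 0.975 in AM132 and 0.896 to 1.34 in RCD. The highest was that of RCD 3, so its miRNA levels are lowered most. For tRFs the factors were 0.927 to 1.17 in AM132 and 0.839 to 1.04 in RCD. All 12 hepatocyte miRNAs looked for were tested and their summed level was 562582 to 708505 CPM in AM132 and 323703 to 615774 CPM in RCD. A pair of libraries stood apart. RCD 3 had the lowest hepatocyte sum, 323703 CPM, and the highest neuronal sum, 2201 CPM against 28.1 to 82.0 in the other RCD libraries. AM132 8 had 48.4% of its tRF counts in tested tRFs against 87.8% to 89.0% in the other AM132 libraries. Results that rest on either are given with and without it. In bulk liver, fewer cells of a type and less of a miRNA per cell cannot be told apart.

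Each miRNA was put to 2 tests from the same edgeR quasi-likelihood fit, both adjusted by Benjamini-Hochberg over all 421 with a threshold of 0.05. One asked whether the log2 fold change of AM132 over RCD, here the log2 change, differed from 0, the other whether it lay within a 1.5-fold margin in both directions. A difference was called for 144 miRNAs (34.2% of those tested), 65 higher (15.4%) and 79 lower (18.8%) in AM132. A match was called for 137 (32.5%). Apart, with a difference and no match, were 124 miRNAs, and 117 were matched, with a match and no difference. A further 20 had both calls, a small difference inside the margin, and 160 had neither and are unresolved. The values of all 8 AM132 libraries lay outside the range of the 8 RCD libraries for 37 miRNAs (8.79%).

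Most of the larger differences pointed down. Among the differences called, 9 miRNAs were more than 2-fold higher and 52 more than 2-fold lower. Of these 52, 28 belong to 1 cluster, the Dlk1-Dio3 locus described below. Without RCD 3, differences numbered 132 of 422 tested (31.3%), 56 higher and 76 lower, and 119 of the 144 calls remained. All 9 of the larger rises and 43 of the 52 larger falls were among them. When libraries were scaled by their total counts alone, 27 miRNAs were higher and 105 lower, since the median log2 fold change of all tested miRNAs moved by -0.19 under that scaling, from 0.03 to -0.16.

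**Figure D1:**
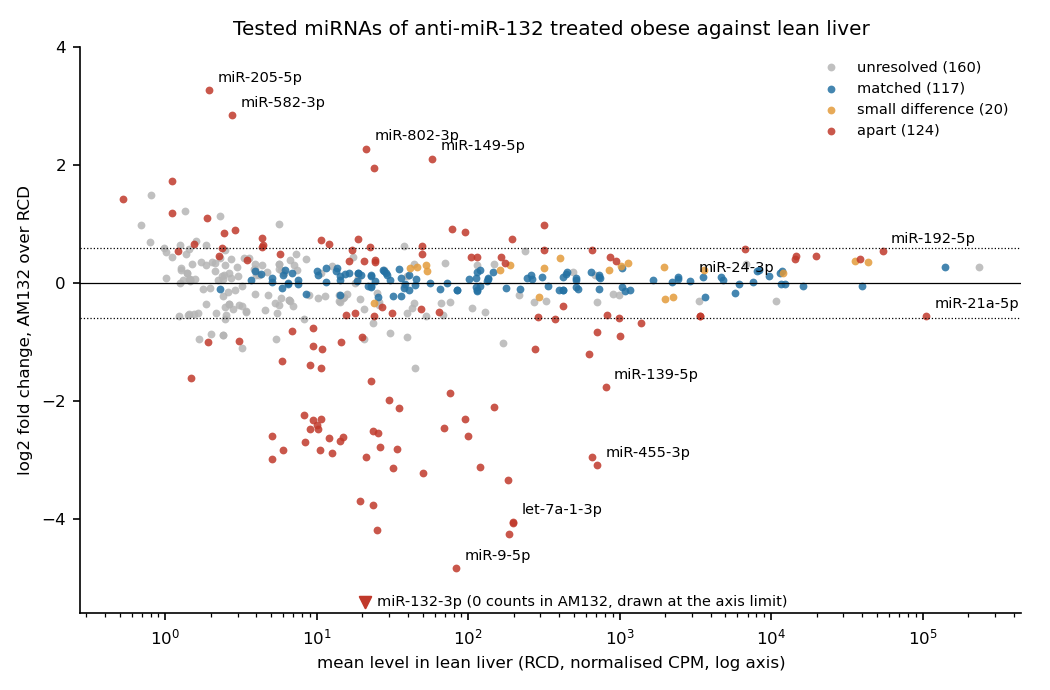
Each point is 1 of 421 tested miRNAs, by its mean level in lean liver (x axis, CPM, log axis) and its log2 fold change in AM132 over RCD (y axis); colours give the outcome of the 2 tests and dotted lines the 1.5-fold margin. Matched miRNAs (117) lie along 0 over the whole range of levels, and falls reach further than rises.

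The target of the oligonucleotide was the most extreme. miR-132-3p, a miRNA best known from neurons that is also made in liver, had 0 counts in all 8 AM132 libraries, while RCD libraries ran from 10.4 to 50.6 CPM (median 16.8). Set against 3 counts summed over all AM132 libraries, the most that a count of 0 allows (0.0598 CPM), its counted level was at least 346-fold lower in AM132 (edgeR adjusted p = 3.77e-10). Floors cover counting error only. From counts, miRNA held by the oligonucleotide and miRNA lost from the tissue cannot be told apart. The opposite arm of the same hairpin, miR-132-5p, was matched. It ran from 16.2 to 29.7 CPM (median 25.7) in AM132 and from 19.2 to 35.02 (median 20.9) in RCD, a log2 fold change of 0.14 with a 95% interval of -0.21 to 0.50 (edgeR match adjusted p = 0.0276). The RefSeq hairpins Mir212 and Mir132 lie at chr11:75173388-75173478 and chr11:75173682-75173747 on the plus strand of GRCm38, inside introns of the transcript 1700016P03Rik.

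miR-212-3p, made from the neighbouring hairpin and with the seed of miR-132-3p, was scarce in both groups. Levels ran from 0 to 0.877 CPM (median 0.448) in AM132 and from 0.292 to 4.32 (median 1.07) in RCD, and the ranges overlapped. It fell by 1.61 on the log2 scale (SE 0.527, edgeR adjusted p = 0.0199), a call lost without RCD 5 and, at an adjusted p of 0.0559, without RCD 3 and RCD 4 together. miR-212-5p stayed unresolved, at medians of 21.6 CPM in AM132 and 17.1 in RCD.

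The passenger strands of let-7 fell while most guide strands rose. let-7 is an abundant family that restrains growth and metabolic genes, and its guide strands share 1 seed. Over all tested miRNAs 18.8% fell, 15.4% rose and the median log2 fold change was 0.03. Of 10 passenger strands tested, 7 fell and 0 rose, with a median of -1.49. Their summed level was 445 to 901 CPM in AM132 (median 604) and 979 to 1624 in RCD (median 1352), with no overlap. Of 9 guide strands, 6 rose and 1 (let-7e-5p) fell, with a median of 0.36; let-7c-5p and let-7i-5p were matched.

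let-7a-1-3p ran from 5.76 to 26.6 CPM (median 10.1) in AM132 and from 109 to 303 (median 204) in RCD. Every AM132 library was far below every RCD library, a log2 change of -4.06 with SE 0.249 (edgeR adjusted p = 3.83e-12). let-7c-2-3p has the same mature sequence and counts within 2% in each library, so the pair is 1 measurement. let-7b-3p fell by 1.98 on the log2 scale, let-7f-2-3p by 2.84 and let-7f-1-3p by 2.48. let-7c-1-3p, let-7i-3p and miR-98-3p did not pass, at 0.30, 0.43 and 0.19. The most abundant guide strand, let-7f-5p, ran from 51912 to 60432 CPM in AM132 and from 30011 to 49630 in RCD. Its groups did not overlap, but at 0.36 (SE 0.0739, edgeR adjusted p = 0.000449) it lay within the margin of a match. Scaling by library totals left 4 of the 6 rises of guide strands and all 7 falls of passenger strands.

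Some other strands with falls came from hairpins whose opposite arm was matched or rose. miR-455-3p ran from 21.97 to 315 CPM (median 55.5) in AM132 and from 382 to 1012 (median 738) in RCD. The groups did not overlap, and the log2 change was -3.09 with SE 0.421 (edgeR adjusted p = 3.64e-06). Its opposite arm miR-455-5p, at medians of 1151 and 1165 CPM, was matched. miR-139-5p, which is made in an intron of Pde2a (hairpin at chr7:101475376-101475443, plus strand), ran from 177 to 442 CPM (median 206) in AM132 and from 661 to 1010 (median 770) in RCD. That is a log2 change of -1.76 with SE 0.152 (edgeR adjusted p = 2.14e-09), again with no overlap, while miR-139-3p rose by 0.49. miR-664-3p, at medians of 7.62 and 18.6 CPM, and miR-30e-3p, at 398 and 717 CPM, were also below every RCD library.

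The livers given the control oligonucleotide are shown for the same strands. In AM608, let-7a-1-3p ran from 159 to 199 CPM, miR-139-5p from 751 to 1004, miR-455-3p from 372 to 567 and miR-30e-3p from 630 to 752 CPM. Those values lie among or near the RCD values. The difference between AM132 and AM608 was not tested here. Within AM132, 1 library sat nearest to lean for many of these strands. AM132 1 had the highest AM132 level for 14 of the 23 miRNAs that fell more than 2-fold outside the Dlk1-Dio3 list and miR-132-3p, against 80 of all 421 tested, and for 23 of the 28 tested Dlk1-Dio3 miRNAs.

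**Figure D2:**
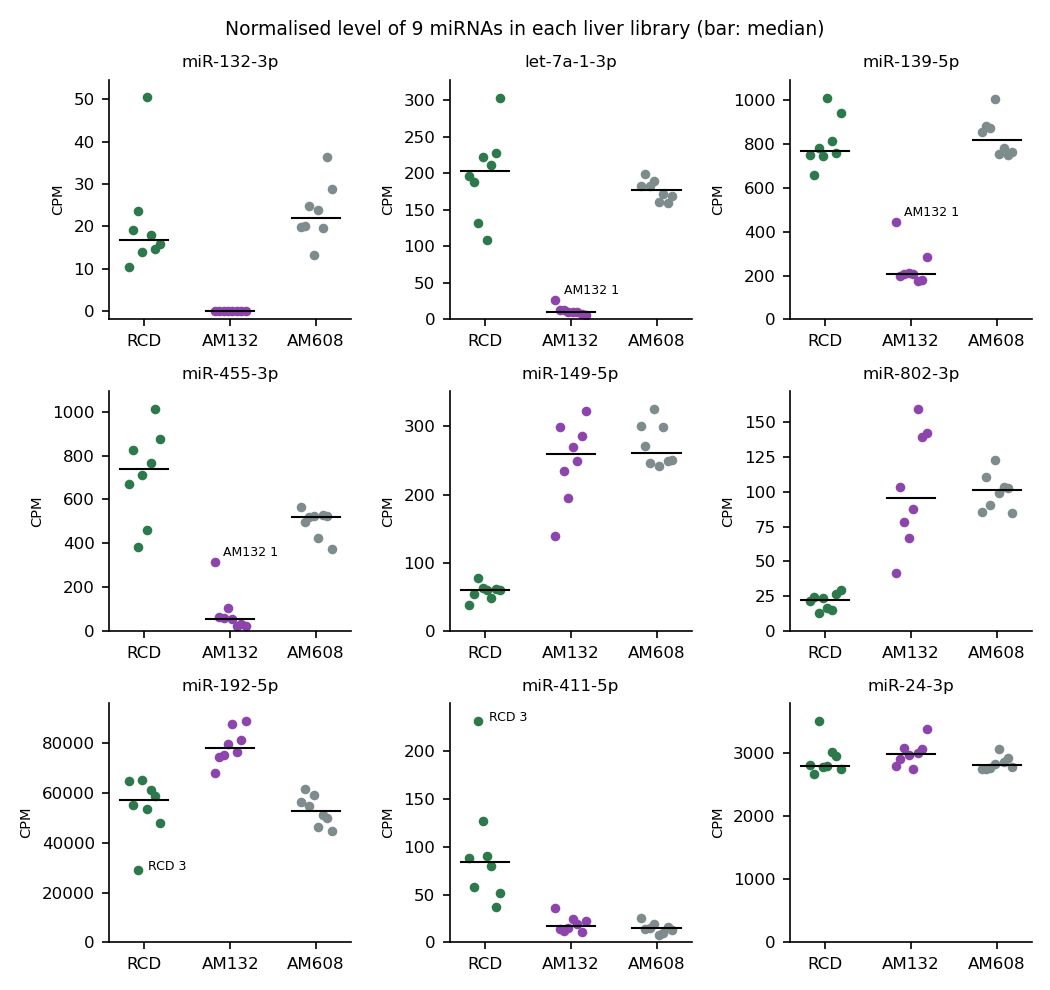
Each point is the normalised level (y axis, CPM, linear) of a miRNA in 1 of 8 libraries per group (RCD, AM132, AM608), and bars are medians. miR-132-3p, let-7a-1-3p, miR-139-5p and miR-455-3p have lower medians in AM132 than in both other groups, miR-149-5p, miR-802-3p and miR-411-5p lie on the same side of RCD in AM132 and AM608, and miR-24-3p is level.

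The ratio of the 2 arms of a hairpin does not depend on how a library is scaled. It was tested with limma on the log2 ratio of 5p to 3p counts for 107 hairpins, and changed for 25 (23.4%), toward the 5p arm in 17 and toward the 3p arm in 8. For miR-132 itself the log2 ratio rose by 8.00 (SE 0.217, limma adjusted p = 8.59e-21), with the 3p arm at the prior of 0.5 counts. In let-7b it went from 6.95 ± 0.311 in RCD to 9.18 ± 0.462 in AM132 (SD, n = 8; limma adjusted p = 4.1e-11). In miR-139 it went from 7.12 ± 0.281 to 4.82 ± 0.482 (limma adjusted p = 4.1e-11), and in miR-455 from 0.764 ± 0.477 to 4.21 ± 1.05 (limma adjusted p = 2.27e-09). For let-7d it rose by 1.16 and for miR-676 it fell by 0.87.

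**Figure D3:**
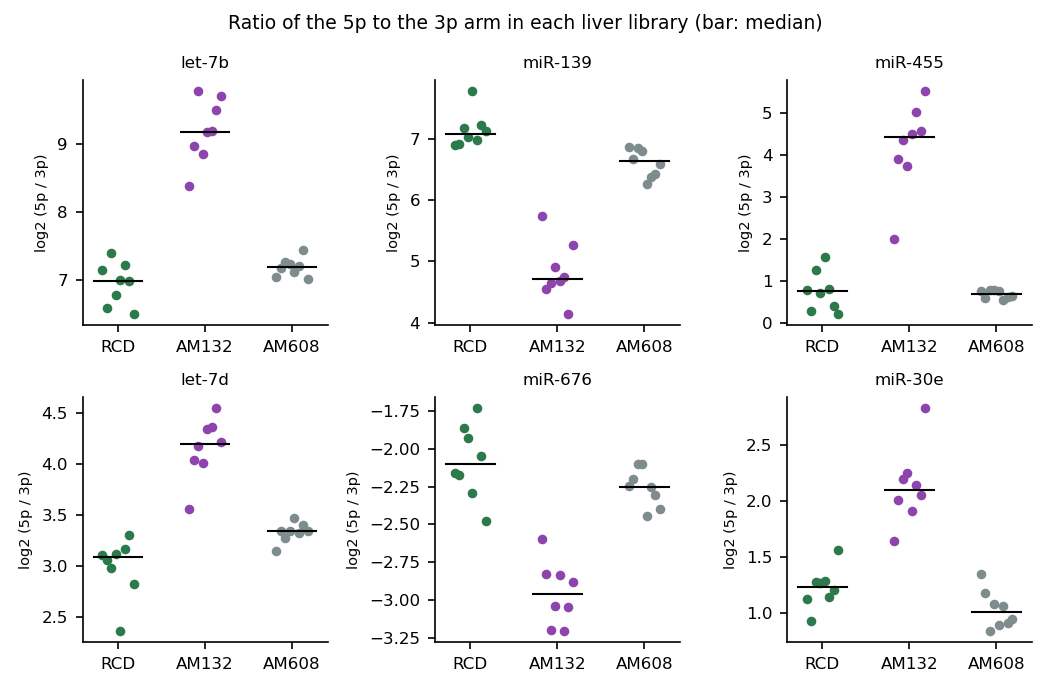
Points are the log2 ratio of 5p to 3p level (y axis) in each library of RCD, AM132 and AM608 for 6 hairpins, with bars at medians. In let-7b, miR-455, let-7d and miR-30e the AM132 points sit above RCD, and in miR-139 and miR-676 below it.

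Among the hairpins whose arm ratio changed, runs of bases found in miR-132-3p were counted in the arm that lost ground and in the other arm. The hairpins were picked by these same values, and not every arm had a sequence, so the counts are not paired. This was looked for after the values were seen, which 16 bases the oligonucleotide covers is not stated, and no test was made. Leaving out miR-132, the arm that moved down relative to its partner shared a run of at least 5 bases with miR-132-3p in 12 of 20 hairpins with a sequence (60.0%), and the other arm in 2 of 22 (9.09%). For runs of at least 6 bases these counts were 5 of 20 and 1 of 22 (4.55%). The arms that moved down include miR-212-3p, with the seed of miR-132-3p, and miR-379-3p of the Dlk1-Dio3 locus, both called lower. Others were not called lower while the partner rose, such as miR-582-5p (log2 change 0.09), miR-1843b-5p (0.15) and miR-27a-3p (0.01). The counts are therefore not counts of strands that fell. Over all 366 miRNAs with a sequence other than miR-132-3p, 82 shared a run of at least 5 (22.4%), as did 23 of the 68 called lower (33.8%) and 16 of the 60 called higher (26.7%). The median longest run was 4 over all 366, among those called lower and among those called higher. For runs of at least 6 bases the shares were 10 of 68 called lower (14.7%), 4 of 60 called higher (6.67%) and 25 of all 366 (6.83%).

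Runs of that length did not always go with a fall. Of 25 miRNAs with a run of at least 6 bases, 10 fell, 4 rose and 5 were matched, miR-148a-3p, miR-214-5p and miR-146a-5p among the matched. Over all 366, 68 fell, 60 rose and 103 were matched. The 9-base runs belong to let-7f-2-3p and miR-212-3p, and the 8-base run to miR-28a-5p (named after its values were seen), which went from a median of 292 CPM in RCD to 189 in AM132 (log2 fold change -0.57, SE 0.0972, edgeR adjusted p = 5.26e-05). The furthest fall among the shown strands was that of let-7a-1-3p, with a run of 5; 11 of its bases are the same as in miR-132-3p at the best ungapped placement, against a median of 8 over all 366. Of the fallen miRNAs with a long run, miR-369-3p, miR-495-3p, miR-379-3p and miR-434-5p belong to the Dlk1-Dio3 locus, whose members fell whether or not they hold one.

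Of 52 miRNAs listed for the Dlk1-Dio3 locus, 28 were tested, and all 28 fell. This imprinted cluster encodes a long run of miRNAs and the lncRNA Mirg, and is best known from embryo, placenta and brain; here its 21 tested hairpins span chr12:109585789-109743496. Over all tested miRNAs 18.8% fell and in 8.79% the groups did not overlap. Of the 28 here, 14 had no overlap, the median log2 fold change was -2.62 and the smallest fall was 2.10. Their summed level ran from 90.1 to 294 CPM (median 140) in AM132 and from 298 to 3566 (median 637) in RCD. RCD 3 gave the 3566 CPM and RCD 4 the next highest value, 936 CPM, and RCD 3 had the highest RCD level for 26 of the 28, while AM132 1 had the highest AM132 level for 23 of them. Without RCD 3, 25 of 28 still fell with a median of -1.98, and without RCD 3 and RCD 4 it was 24 with a median of -1.81. The filter on low counts can admit a miRNA through the group where it is higher. The 28 may therefore favour members that are high in RCD.

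miR-411-5p ran from 10.7 to 36.4 CPM (median 17.6) in AM132 and from 36.7 to 231 (median 83.9) in RCD. The lowest RCD library was just above the highest AM132 library, and the log2 change was -2.31 with SE 0.335 (edgeR adjusted p = 8.49e-06; -2.002 without RCD 3). miR-541-5p (-2.59), miR-134-5p (-2.61) and miR-299a-3p (-2.41) also lay below every RCD library. miR-370-3p, miR-433-3p and miR-136-5p are the 3 that no longer passed without RCD 3; miR-370-3p went from -4.19 to -0.80 (edgeR adjusted p = 0.0602). In AM608 the summed level was 70.0 to 209 CPM, so both obese groups were below the lowest RCD library for this locus.

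Some markers of other tissues moved with RCD 3. Of 11 neuronal miRNAs listed, 5 were tested and 3 fell (median -1.45), against 18.8% of all tested miRNAs. The 3 were miR-9-5p, miR-137-3p and miR-218-5p. miR-218-5p was at 1389 CPM in RCD 3 and at 7.06 to 17.1 CPM in the other RCD libraries, and its log2 fold change turned from -3.34 to 0.74 without RCD 3 (edgeR adjusted p = 0.082). Without RCD 3 the median of the neuronal list was 0.20 and 2 members fell, miR-9-5p (-2.74) and miR-137-3p (-0.66). With RCD 4 also left out, 1 member fell. Of 6 muscle miRNAs listed, 3 were tested, with a median of -0.38 and, without RCD 3, of -0.43. Their sum was 323 CPM in RCD 3, 148 in RCD 4 and at most 37.3 in the other RCD libraries. The 1 fall, miR-1a-3p, was lost without RCD 3. miR-7b-5p, miR-10b-5p, miR-615-3p and miR-338-3p lost their calls in the same way. The part of such a tissue in the Dlk1-Dio3 result was not tested beyond these values.

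Several miRNAs tied to metabolism stayed above the lean level. miR-802 is known to rise in obese liver and to impair insulin signalling. miR-802-3p ran from 41.7 to 159 CPM (median 95.4) in AM132 and from 12.9 to 29.3 (median 22.5) in RCD, a log2 change of 2.28 with SE 0.224 (edgeR adjusted p = 2.14e-08) with no overlap. miR-802-5p rose by 1.95; 1 lean library, RCD 8, was at 73.3 CPM and the other 7 at 9.20 to 25.1. miR-107-3p, another brake on insulin sensitivity, rose from a median of 311 to 640 CPM, and miR-103-3p by 0.33, inside the margin. Of the 10 miRNAs of the insulin and glucose list, 4 rose, 0 fell, 3 were matched and the median was 0.02; with library totals 3 rose and 3 fell (median -0.18). Over all tested miRNAs 15.4% rose and 27.8% were matched.

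miR-149-5p, made from an intron of Gpc1 (chr1:92850378-92850443, plus strand), was the clearest rise. It ran from 139 to 322 CPM (median 260) in AM132 and from 38.4 to 77.9 (median 60.2) in RCD, a log2 change of 2.11 with SE 0.149 (edgeR adjusted p = 5.08e-11). miR-205-5p, a miRNA of epithelia, ran from 4.15 to 45.5 CPM (median 15.7) in AM132 and from 0.715 to 3.31 (median 1.69) in RCD, a log2 change of 3.27 with SE 0.458 (edgeR adjusted p = 5.14e-06). miR-582-3p rose by 2.84, from a median of 2.48 to 17.7 CPM. In all of these 3 the groups did not overlap. In AM608 the medians were 261 CPM for miR-149-5p and 101 for miR-802-3p, close to AM132, but 56.9 for miR-205-5p and 71.8 for miR-582-3p, higher than in AM132; no test was made between those groups.

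The hepatocyte miRNAs were level or somewhat above lean. Of 12, 3 rose (miR-192-5p, miR-194-5p and miR-802-5p), 0 fell and 6 were matched, with a median of 0.25. Over all tested miRNAs 15.4% rose and 27.8% were matched. With library totals 2 of the 12 rose and 1 fell. miR-192-5p, the most abundant of the 3, ran from 68111 to 89034 CPM (median 78072) in AM132 and from 29235 to 65191 (median 57119) in RCD, where RCD 3 was lowest. The groups did not overlap, and the log2 change was 0.53 with SE 0.116 (edgeR adjusted p = 0.000756; 0.41 without RCD 3). miR-194-5p, which the study title mentions and which is made from the same transcripts as miR-192 and miR-215, ran from 17789 to 23580 CPM (median 19668) in AM132 and from 6558 to 21860 (median 14983) in RCD. It rose by 0.45 (SE 0.144, edgeR adjusted p = 0.0174), with overlap, and did not pass when libraries were scaled by totals (0.28, adjusted p = 0.12). Over the 5 tested products of these clusters 2 rose, and miR-215-5p was matched.

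miR-122-5p, the most abundant miRNA of both groups, was unresolved. It ran from 234020 to 332157 CPM in AM132 and from 118011 to 293424 in RCD, with a log2 fold change of 0.28 and a 95% interval of -0.01 to 0.57, which reaches just short of the margin. miR-148a-3p, next in abundance, was matched at 0.28 (0.02 to 0.53). miR-21a-5p, which rises in growing and injured tissue, was the third most abundant in lean liver and was lower in AM132. It ran from 56172 to 96528 CPM (median 68723) there and from 78568 to 123600 (median 111516) in RCD, a log2 change of -0.56 with SE 0.11 (edgeR adjusted p = 0.000271).

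Matched miRNAs had mean levels in RCD from 2.29 CPM upward. Of the 50 miRNAs with a mean of at least 1000 CPM in RCD, 26 were matched (over all 421 tested it was 117, 27.8%; the difference was not tested), 9 had a small difference, 11 were apart and 4 unresolved. Without RCD 3, 111 of the 117 matched miRNAs were still matched, and 3 had a difference called. Scaling by library totals gave 11 of them a difference. The tightest matches had values that nearly coincided. miR-24-3p, a ubiquitous miRNA, ran from 2753 to 3391 CPM in AM132 (median 2989) and from 2678 to 3518 in RCD (median 2807), a log2 fold change of 0.04 with a 95% interval of -0.07 to 0.15 (edgeR match adjusted p = 9.59e-08). miR-27a-3p (0.01), miR-30d-5p (0.11), miR-191-5p (-0.01), miR-186-5p (-0.06), miR-26a-5p (-0.05), miR-140-3p (-0.08) and let-7c-5p (-0.02) followed. With totals as the scaling, miR-26a-5p, miR-186-5p and miR-140-3p passed the difference test as lower (edgeR adjusted p = 0.00783, 0.0252 and 0.0224).

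In the lipid and sterol list 1 of 17 tested rose (miR-185-5p, 0.44), 8 were matched and the median was 0.01; miR-378a-3p, at 0.32, did not pass with edgeR (adjusted p = 0.07) or DESeq2 (0.147) but did with limma voom (0.0295) and, in edgeR, without RCD 3 (0.48, adjusted p = 4.36e-05). With library totals as the scaling, 0 of this list rose and 3 fell (median -0.19). All 4 miR-30 guide strands other than miR-30b-5p were matched, while miR-30b-5p fell by 1.20; of 6 miR-30 passenger strands 2 rose, 2 fell and 2 were matched. In the miR-23, miR-27 and miR-24 clusters 5 of 9 were matched, miR-23a-3p and miR-23b-3p fell by 0.89 and 0.59, and miR-27a-5p and miR-27b-5p rose. The miR-148 and miR-152 family had 4 of 6 matched and both arms of miR-152 higher, miR-152-3p by 0.56. In the miR-17/92 and miR-106b/25 clusters 7 of 15 were matched and 2 fell, miR-25-3p by 0.67 and miR-106b-5p by 0.44. Of the miR-29 family 1 of 7 rose, of the miR-15/16 family 1 of 9, and of the miR-99/100 and miR-125 families 1 of 9 rose and 2 fell. Over all tested miRNAs 15.4% rose, 18.8% fell and 27.8% were matched, and no family was tested against these shares. With library totals, 0 rose and 3 fell in the miR-23, miR-27 and miR-24 clusters, 0 and 2 among miR-30 passenger strands, 0 and 4 in the miR-17/92 and miR-106b/25 clusters, 1 and 1 in the miR-29 family, 0 and 0 in the miR-15/16 family, and 0 and 3 in the miR-99/100 and miR-125 families.

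**Figure D4:**
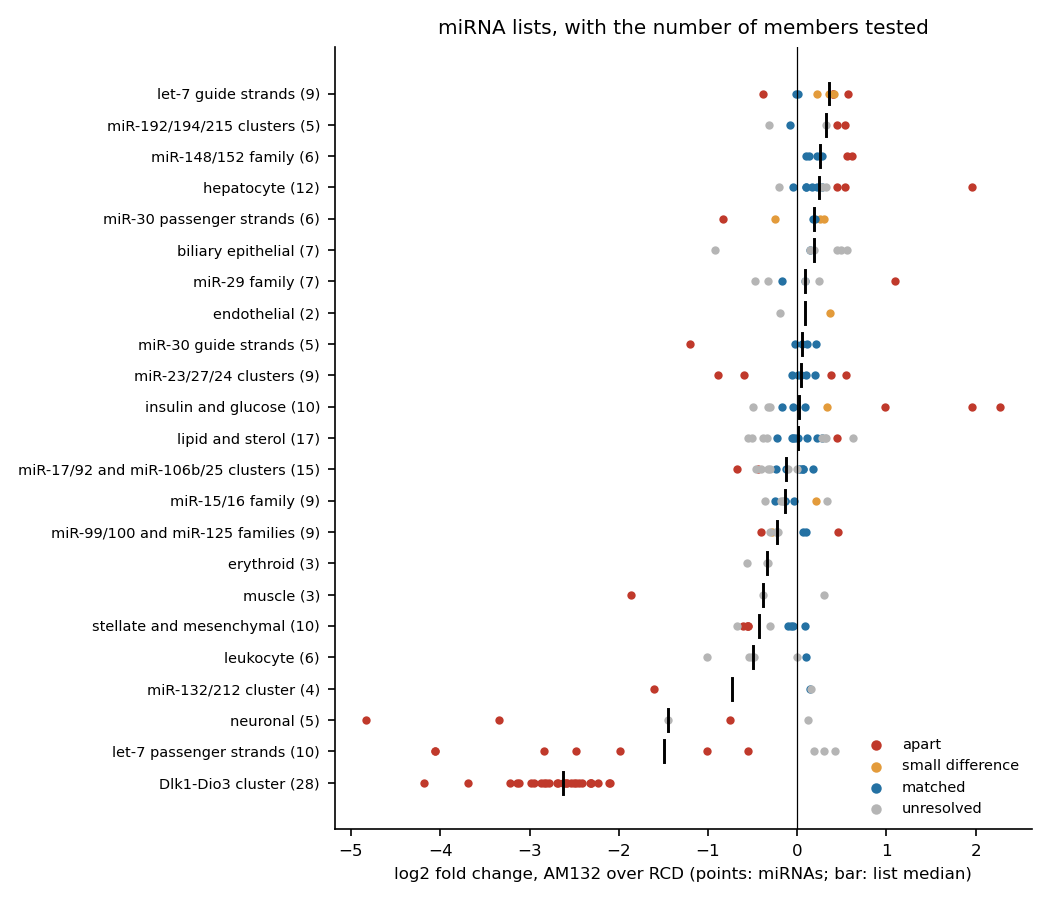
Each point is the log2 fold change (x axis, AM132 over RCD) of 1 tested member of a miRNA list, coloured by the outcome of the 2 tests, with a bar at the median of the list; miR-132-3p, which has 0 counts in AM132, is left out as a point. The Dlk1-Dio3 cluster (median -2.62) and let-7 passenger strands (-1.49) lie furthest below 0, and the let-7 guide strands (0.36) furthest above.

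Other cell types of the liver gave smaller differences. Among 10 stellate and mesenchymal miRNAs 4 fell and 4 were matched (median -0.43), against 18.8% and 27.8% of all tested miRNAs. miR-145a-5p fell by 0.61, and miR-199a-3p and miR-199b-3p, whose counts lie within 2% of each other, by 0.56. Their summed level was 11417 to 18815 CPM in AM132 and 15768 to 29074 in RCD, highest in RCD 3, and the same 4 fell without RCD 3. Of the 2 endothelial miRNAs tested, miR-126a-3p rose by 0.36, within the margin, and did not pass with totals. The other, miR-126a-5p, was unresolved at -0.19 (edgeR adjusted p = 0.43). In the biliary (7 tested), leukocyte (6) and erythroid (3) lists edgeR called 0 in each. At an unadjusted p under 0.05 there were 1, 2 and 1, DESeq2 called 1 in each, limma voom 0, and edgeR with library totals 1, 2 and 1 lower. Their summed levels overlapped between the groups, for leukocytes 3573 to 6702 CPM in AM132 and 4083 to 6833 in RCD. No listed marker that was tested was at 0 in all 16 libraries.

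For tRFs, differences were fewer and no match could be called. Of 295 tested tRFs, 45 differed (15.3%), 18 higher (6.1%) and 27 lower (9.15%), and in 2 (0.678%) the groups did not overlap. Without AM132 8, 39 of 313 tested differed (12.5%), and of the 45 calls 9 of the higher and 23 of the lower remained. With library totals as the scaling 42 were higher and 22 lower, with the median of all tested tRFs moving by 0.19. edgeR called 0 matches within 1.5-fold; 59 had an unadjusted match p under 0.05, and 151 matched within a 2-fold margin. tRF counts per library were far fewer than miRNA counts, and the intervals of single tRFs were wide. For the abundant CCA-ending tRF-18-8R6Q46D2, which has the end of a tRNA-Ala, the log2 fold change was -0.12 with a 95% interval of -0.47 to 0.23.

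The most abundant tRF was lower in AM132. tRF-26-86J8WPMN1EE, which has the 5′ end of tRNA-Glu, ran from 31832 to 137850 CPM of tested tRF counts in AM132 (median 111605) and from 66356 to 269643 in RCD (median 177162). The ranges overlapped, and it fell by 0.85 on the log2 scale (SE 0.246, edgeR adjusted p = 0.0172; 0.0173 without AM132 8). All 11 tested tRFs that share its first 12 bases had a negative value, with a median of -0.95. Of them 7 passed, against 9.15% called lower over all tested tRFs. The 11 share a 5′ end and are not separate evidence. They held 13.98% of the tested tRF counts in AM132 and 22.98% in RCD. The near copy tRF-26-86V8WPMN1EE ran from 2480 to 9562 CPM in AM132 (median 4546) and from 10141 to 17092 in RCD (median 13538), without overlap (-1.34, SE 0.244, edgeR adjusted p = 0.000519).

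tRF-16-S3M830E, whose 16 bases lie in the tRNA-Ser genes n-TSaga9, n-TStga1 and n-TStga2, was the other tRF without overlap. It ran from 1078 to 2440 CPM in AM132 (median 1416) and from 3609 to 10486 in RCD (median 6440), a log2 change of -2.12 with SE 0.22 (edgeR adjusted p = 1.09e-07). In AM608 it ran from 4542 to 8660 CPM, within the RCD range. Of 7 tested tRFs within these genes, 2 rose and 1 fell, and without AM132 8 0 rose and 2 fell. The 2 that rose have the same first 16 bases. tRF-24-S3M8309N0Y and tRF-23-S3M8309NS (2.54 and 2.62) were at 34216 and 39353 CPM in AM132 8 and at no more than 1320 CPM in any other AM132 library; without AM132 8 they had log2 changes of -0.15 and -0.63 and did not pass. The 5 tRFs that start as tRF-16-RPM830D, the 5′ end of a tRNA-Leu, had a median of -0.97 and 3 fell, against 9.15% of all tested tRFs. tRF-20-RPM830MM, tRF-16-R9JP9PD and tRF-16-PJ5830E fell by 2.06, 2.38 and 1.66.

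Lysine tRNA fragments, which the title of the study names, were partly below lean. The 8 tested tRFs that start as tRF-30-PSQP4PW3FJI0, the 5′ end of a tRNA-Lys, had a median of -0.70. Of them 2 fell, against 9.15% of all tested tRFs. tRF-30-PSQP4PW3FJIK ran from 9193 to 23104 CPM in AM132 (median 18029) and from 21018 to 37436 in RCD (median 26550), a log2 change of -0.68 with SE 0.169 (edgeR adjusted p = 0.00783). tRF-30-PSQP4PW3FJI0, which differs from it near the 3′ end, reached 205200 CPM in 1 lean library and changed by -0.82 (edgeR adjusted p = 0.197), or -0.07 without RCD 3. The 7 that start as tRF-19-PS5P4PJ4 had a median of 0.24 with all libraries and -0.24 without AM132 8, and 0 passed with edgeR in either.

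Several fragments of a tRNA-His rose. Only 24 of 430 tRNA genes had sequence in the reference used here, and 40 tested tRFs matched 1 of them; a match does not exclude other tRNA genes. Among them, 11 lie within n-THgtg7 (chr3:96452495-96452566), of which 6 rose and 0 fell, with a median of 0.74. Over all tested tRFs the median was 0.03 and 6.1% rose. tRF-30-34HWH3RXSINH, from near the 5′ end, ran from 1209 to 3712 CPM in AM132 (median 2511) and from 497 to 2522 in RCD (median 681), a log2 change of 1.36 with SE 0.322 (edgeR adjusted p = 0.00557). tRF-21-V47PU9XWE rose by 1.00 and tRF-19-V47PU9J8 by 0.81, and tRF-20-73VL4YMY by 2.41. The last was at 4228 CPM in AM132 8 and at no more than 1760 in the other AM132 libraries, and rose by 1.63 without AM132 8. Without that library 4 of the 11 rose. These pieces overlap and are not separate evidence. Pieces that begin at the 5′ end of this tRNA with another first base matched no gene and did not pass with edgeR. Of these, tRF-23-XSXMSL730H, tRF-24-FSXMSL732Z and tRF-24-XSXMSL732Z had log2 changes of -0.65, -0.75 and -0.49, and the first and second of them passed as lower with DESeq2 and limma voom. The longer tRF-27-XSXMSL73VL3 and tRF-27-FSXMSL73VL3 were at 1.35 and 1.16. Other rises were those of tRF-16-MNH5SYD (1.59) and the CCA-ending tRF-21-LMK8J7K1B (1.69).

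By length, tRFs of 19 to 21 nt made up more and those of 23 to 29 nt less of a library's tRF counts in AM132. The first class held 16.3% ± 4.34 in AM132 and 12.3% ± 1.16 in RCD (SD, n = 8; two-sided exact permutation test over 12870 assignments, adjusted p = 0.0124 over 8 values). AM132 8 was at 26.3% and the other 7 at 13.4% to 18.3%; without it the difference was 2.52 points (exact permutation, adjusted p = 0.0199). tRFs of 18 nt held 31.8% and 27.8%, a difference of 3.96 points that did not pass (exact permutation, adjusted p = 0.13) but did without AM132 8 (4.87 points, adjusted p = 0.0317). The class of 23 to 29 nt held 23.7% ± 1.34 and 30.3% ± 6.01 (SD, n = 8; exact permutation, adjusted p = 0.0367), a call that did not survive the removal of 1 library in 11 of the 16 cases, AM132 2 to 7 and RCD 2, 4, 5, 7 and 8. Tested tRFs of 23 to 29 nt had a median of -0.26, with 13 of 69 lower and 5 higher. Over all tested tRFs 9.15% were lower and 6.1% higher. The share ending in CCA was 34.2% ± 7.09 and 31.1% ± 3.75 (SD, n = 8; exact permutation, adjusted p = 0.416). AM132 8 had 17.6% there, and without it the difference of 5.48 points passed (exact permutation, adjusted p = 0.0317). tRF counts relative to miRNA counts, on the log2 scale, did not pass, at a difference of 0.34 (exact permutation, adjusted p = 0.258).

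**Figure D5:**
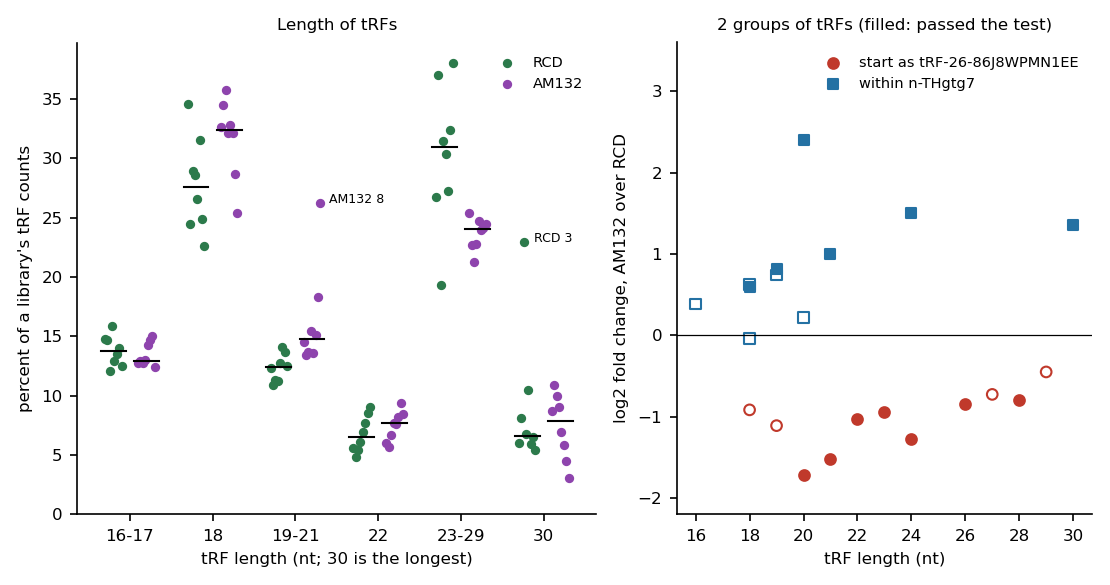
Left, the percentage of a library's tRF counts (y axis) in each length class (x axis, nt) for the 8 RCD and 8 AM132 libraries, with bars at medians. Right, the log2 fold change (AM132 over RCD) against length for the tested tRFs that start as tRF-26-86J8WPMN1EE (circles, all below 0) and for those within n-THgtg7 (squares, 10 of 11 above 0); filled points passed the test.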

How the data were processed

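Small RNAs of 24 mouse livers were sequenced on a NextSeq 500 from NEBNext libraries, per the labels' protocols. The authors deposited 2 tables of raw read counts, 1 of miRNAs (1908 names) and 1 of tRFs (8456 names), with 1 column per sample. FastQC is named in the submitters' processing notes; for the aligner, the counter and the build, the answer is "not given in the sources used here". Names with the same sequence can hold the same reads: 8 pairs of tested miRNAs had counts within 2% in all 16 libraries.

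Features that passed edgeR's filter on low counts were kept (421 miRNAs, 295 tRFs), with library size taken as their sum and TMM factors. All 24 libraries entered 1 quasi-likelihood fit per table (R 4.3.3, edgeR 4.0.16), which estimates the spread, and AM132 was compared with RCD. The SE is the size of the log2 change divided by the square root of F. A match needed both one-sided tests of a 1.5-fold margin, adjusted over all features. Arm ratios used log2 counts plus 0.5 in limma 3.58.1. tRF shares used exact permutation tests. DESeq2 1.42.0 and limma voom were alternatives. Fits were checked on simulated data. Tables and figures used python 3.11.15, pandas 2.3.3, numpy 2.4.6 and matplotlib 3.10.9. Sequences and loci came from RefSeq and the GRCm38 annotation; tRF sequences were decoded from their names.

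Named features were the miR-132/212 arms, miR-192-5p, miR-194-5p and miR-122-5p, the 15 most abundant miRNAs and 8 most abundant tRFs in RCD, up to 10 miRNAs higher (5 qualified) and 10 lower by over 2-fold at 10 CPM or more with the smallest p, the 8 closest matches, the 6 hairpins and the 6 tRFs in each direction with the smallest p, and list members. The comparison, the lists and the tRF families were chosen with earlier results of these data known. Replicate numbers were not used in the main fits, since the titles do not say that they pair the samples. The share of 22 nt tRFs was higher in library 8 than in library 1 of each group. It was 8.44% and 6.04% in AM132, 8.99% and 5.54% in RCD, and 7.35% and 3.64% in AM608. In libraries 2, 4 and 6 it was 5.66%, 7.69% and 8.22% in AM132 and 4.81%, 6.05% and 7.70% in RCD. In AM608 it was 4.82%, 6.07% and 7.26%. The share thus climbed with the replicate number in most steps. Whether the numbers carry a shared order was not tested, and the main tests take no account of one. Results with a replicate block are given below.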

Additional observations from a re-analysis of the deposited data

Results flagged for a closer look

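In 105 groups of 8 values examined, 28 had 1 library further from its nearest neighbour than Dixon's limit allows; chance flags about 1 in 20 groups. AM132 8 accounts for 8 of them. It held 80578 tRF counts against 25849 to 41236 in the other AM132 libraries, 48.4% of them in tested tRFs, 26.3% in tRFs of 19 to 21 nt (others 13.4% to 18.3%) and 17.6% in tRFs ending in CCA (others 32.4% to 40.0%). Its log2 ratio of tRF to miRNA counts was -6.33, its endothelial and erythroid sums were 58548 and 1519 CPM, and tRF-20-73VL4YMY was at 4228 CPM.

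RCD 3 accounts for 10. Its tRFs of 30 nt made up 22.9% of tRF counts against 5.37% to 10.5% in the other RCD libraries, and its summed levels were 3566 CPM for the Dlk1-Dio3 locus, 29074 for stellate, 2201 for neuronal and 323 for muscle miRNAs. miR-411-5p, miR-541-5p and miR-134-5p of that locus were at 231, 281 and 42.3 CPM, miR-132-5p at 35.02 and miR-582-3p at 6.17 CPM.

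AM132 1 was far above the other AM132 libraries for 5 miRNAs that fell: let-7a-1-3p and its copy let-7c-2-3p at 26.6 CPM (others 5.76 to 12.7), miR-139-5p at 442 (177 to 284), miR-455-3p at 315 (at most 102) and miR-541-5p at 34.1 (9.80 to 20.2). RCD 5 stood apart for miR-132-3p at 50.6 CPM and miR-664-3p at 53.2, RCD 8 for miR-802-5p at 73.3 and 1 tRF of 23 nt (tccctgtggtctagtggttagga) at 2553, and AM132 6 for the muscle sum at 62.2 CPM.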

How the results depend on the processing

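Over the 66 features named by rule, list members apart, and 1742 alternatives, 1713 kept direction and side of the threshold, 10 passed newly, 18 no longer passed and 1 turned: miR-10a-5p, 0.17 as reported, was -0.016 with library totals (edgeR adjusted p = 0.917). Among all 144 called miRNAs, 2 changed sign without RCD 3. The 144 miRNA differences became 94 (36 higher, 58 lower) with a minimum mean of 10 CPM, and 113 with the 16 libraries alone; leaving out 1 library or 2 gave 113 to 154. The 137 matches became 9 at the narrower margin tried and 290 at a 2-fold margin, and 127 to 161 with libraries left out. tRF differences became 191 (169 higher, 22 lower) without a filter, 70 with a minimum mean of 100 CPM, 64 with library totals, and 37 to 62 with libraries left out. The 0 tRF matches became 1078 without a filter, 151 at a 2-fold margin and 5 without RCD 3 and AM132 8, 0 to 5 over all left-out libraries. Arm-ratio calls ran from 22 to 28.

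The difference in tRFs of 18 nt, 3.96 points as reported, was 4.87 without AM132 8 (exact permutation, adjusted p = 0.0317), 5.21 points over tested tRFs alone (exact permutation, adjusted p = 0.0394), 5.03 without RCD 3 and AM132 8, and 3.23 to 4.93 with 1 library left out. With 1 or 2 left out, the ranges were 2.37 to 4.36 for 19 to 21 nt (2.52 without AM132 8), -8.34 to -5.56 for 23 to 29 nt (-8.23 without RCD 3) and 2.28 to 5.60 for the CCA end (5.48 without AM132 8). With the replicate block, miRNA differences numbered 132, matches 134, tRF differences 33, tRF matches 0 and arm ratios 23, and tRF-26-86J8WPMN1EE was -0.80. For tRF shares the block meant another test, exact sign flips of the differences between same-numbered samples. There the shares of 19 to 21 nt (3.95) and 23 to 29 nt (-6.66) had an adjusted p of 0.0625 (exact sign flips). For 19 to 21 nt AM132 lay above RCD in every pair. With so few pairs a share by itself cannot reach the threshold after adjustment, so that test cannot decide whether a difference was lost. Same-numbered samples correlated at -0.109 to 0.396 in miRNAs, with 2 of 8 pairs best with their own number, and -0.289 to 0.429 in tRFs, with 3 of 8. The cause of these changes was not tested. The median SE of a log2 change was 0.196 for tested miRNAs and 0.285 for tested tRFs.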
